A study of Mus musculus with 43 samples.

Results

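Mouse genes named Zfp followed by a number encode proteins that bind DNA or RNA through zinc fingers, loops of protein folded around a zinc ion. The genes described here are the 158 such genes that were active in WT full-grown oocytes of the knockout set, active meaning a mean of at least 2 RPKM over its 3 WT libraries. RPKM scales the reads of a gene to the length of its transcript and the size of the library. They were drawn from 344 Zfp-numbered genes considered and from 35842 genes in that table, and 186 of the 344 lay below the threshold. The genes were therefore chosen by their levels in the 3 WT libraries, and every value that rests on those libraries is given as a description.

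The knockout set held 3 WT (wild type), 3 Pcgf1/6 DKO (double knockout) and 3 Pcgf1/6/Mll2 TKO (triple knockout) libraries of full-grown oocytes, the fully grown egg cells of the ovary. A separate set compared 2 oocyte libraries labelled PRC1-WT, of wild-type genotype, with 2 labelled PRC1-CD, in which PRC1 is catalytic dead. The morula, a cleavage-stage embryo, was sampled in 10 libraries each of WT, Pcgf1/6 maternal DKO and Pcgf1/6/Mll2 maternal TKO. The DKO and TKO share the loss of Pcgf1 and Pcgf6, so the step from DKO to TKO is the added loss of Mll2 (gene Kmt2b). Each PRC1-WT and PRC1-CD library was made from 10 pooled oocytes, per the labels' protocols. The labels name no Cre driver, strain or age, and they do not say whether replicates were separate animals.

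The largest branch of the family is the KRAB zinc finger proteins. Their finger arrays bind chosen sequences, often in transposable elements, and their KRAB domain brings in the scaffold protein TRIM28, which gathers the histone H3K9 methyltransferase SETDB1, HP1 proteins and chromatin remodellers to silence the site. In the mouse genome many of these genes lie side by side in groups that grew by gene duplication. PCGF1 and PCGF6 are subunits of variant Polycomb repressive complex 1 (PRC1), which attaches ubiquitin to histone H2A, and MLL2 places H3K4 methylation, a mark of active promoters, on CpG-rich DNA.

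The deleted genes were examined first. Pcgf1 lay between 1077 and 1153 RPKM in the WT oocyte libraries, between 10.6 and 13.4 in DKO and between 10.7 and 13.7 in TKO. Pcgf6 was at 148 to 159, 55.1 to 60.3 and 61.9 to 81.6 RPKM in the same groups, and Kmt2b was at 4.43 to 5.16 in WT, 3.58 to 4.21 in DKO and 1.04 to 1.31 in TKO. The labels of these 9 libraries therefore matched the levels of their deleted genes. In morulae Kmt2b was at 4.10 to 13.7 TPM in WT and 2.68 to 10.8 in maternal TKO, ranges that overlap and check no label. Pcgf1 was at 17.25 to 33.16 TPM in WT and 5.23 to 15.62 in maternal DKO morulae, without overlap. In maternal TKO it was at 6.95 to 26.92 TPM, overlapping both. The ranges of Pcgf6 overlapped among all morula groups. All 9 oocyte markers examined were present in every oocyte group, and the summed level of 10 granulosa and cumulus cell markers was 23.1 to 26.5 RPKM in WT, 16.1 to 17.4 in DKO and 21.7 to 25.6 in TKO libraries. Most of this sum was 1 gene, Cyp19a1, at 25.6, 22.1 and 22.3 RPKM in WT, 13.8, 15.4 and 16.1 in DKO and 16.5, 16.8 and 15.3 in TKO. Among the morulae, 5 of the 30 libraries stood apart on the first principal component, with scores above a limit of 40. They were WT replicate 9, maternal DKO replicates 8 and 9 and maternal TKO replicates 8 and 9. WT replicate 9 lay just over the limit, at 40.8, and maternal DKO replicate 6, at 31.4, was not among them. Values on morulae are given for all 30 libraries and, where stated, for the other 25.

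The promoter sequences of 5 of the genes are shown because these genes stand at both ends of the range of change between DKO and TKO oocytes. Zfp809, Zfp825 and Zfp788 were among the 5 with the largest falls, and Zfp91 and Zfp598 were 2 of the 3 with the largest rises. Each sequence covers 250 bases before and 50 after the first start site in the RefSeq promoter table (GRCm38.p6), which for these 5 genes lies within 100 bases of the 5′ end of the RefSeq gene, 5′ to 3′ on the gene's strand, and capitals mark CpG dinucleotides, the sites of DNA methylation. Positions are chr9:22225453-22225752 on the plus strand for Zfp809, chr13:74493912-74494211 on the minus strand for Zfp825, chr7:41633281-41633580 on the plus strand for Zfp788, chr19:12796074-12796373 on the minus strand for Zfp91 and chr17:24669437-24669736 on the plus strand for Zfp598.
Zfp809: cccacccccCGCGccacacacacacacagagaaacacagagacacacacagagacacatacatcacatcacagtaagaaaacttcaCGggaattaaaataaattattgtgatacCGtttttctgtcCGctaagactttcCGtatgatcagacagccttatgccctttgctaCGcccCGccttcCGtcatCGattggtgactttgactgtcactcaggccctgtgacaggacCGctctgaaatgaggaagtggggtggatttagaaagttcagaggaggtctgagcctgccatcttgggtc
Zfp825: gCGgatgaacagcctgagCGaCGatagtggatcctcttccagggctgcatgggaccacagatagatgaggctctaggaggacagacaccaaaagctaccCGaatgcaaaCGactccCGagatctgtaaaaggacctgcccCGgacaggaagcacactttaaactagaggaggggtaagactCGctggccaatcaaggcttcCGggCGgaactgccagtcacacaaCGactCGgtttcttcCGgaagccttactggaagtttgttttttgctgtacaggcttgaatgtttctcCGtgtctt
Zfp788: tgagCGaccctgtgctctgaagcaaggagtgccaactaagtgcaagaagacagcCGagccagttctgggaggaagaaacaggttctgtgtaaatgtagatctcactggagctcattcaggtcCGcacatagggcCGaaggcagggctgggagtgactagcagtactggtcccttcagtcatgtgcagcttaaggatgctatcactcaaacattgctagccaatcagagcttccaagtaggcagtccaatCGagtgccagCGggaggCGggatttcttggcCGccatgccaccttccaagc
Zfp91: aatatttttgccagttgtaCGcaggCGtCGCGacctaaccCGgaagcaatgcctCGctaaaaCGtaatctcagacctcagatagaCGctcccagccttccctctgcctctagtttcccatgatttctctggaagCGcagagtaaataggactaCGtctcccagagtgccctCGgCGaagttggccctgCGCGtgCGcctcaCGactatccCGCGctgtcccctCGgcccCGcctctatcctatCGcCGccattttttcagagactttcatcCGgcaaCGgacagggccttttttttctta
Zfp598: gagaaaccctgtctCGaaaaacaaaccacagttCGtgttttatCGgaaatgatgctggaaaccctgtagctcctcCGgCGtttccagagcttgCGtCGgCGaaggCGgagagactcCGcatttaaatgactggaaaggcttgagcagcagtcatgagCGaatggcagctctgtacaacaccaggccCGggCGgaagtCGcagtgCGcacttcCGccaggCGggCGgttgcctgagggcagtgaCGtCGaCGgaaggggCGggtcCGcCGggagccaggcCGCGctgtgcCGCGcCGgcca
The 3 promoters of genes that fell hold 11, 14 and 8 CpG dinucleotides, that of Zfp91 holds 24 and that of Zfp598 holds 29. The ends of the range do not all follow this order. Zfp820 and Zfp770, the others of the 5 largest falls, hold 9 and 18. Zfp541, with the largest rise, holds 4, though its listed start site lies 10070 bases from the 5′ end of the RefSeq gene.

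Most of the active zinc finger genes were lower in TKO than in DKO oocytes. Of the 158 genes, 87 fell and 14 rose at an adjusted p under 0.05 (limma on log2(RPKM + 1), Benjamini-Hochberg over the 12873 genes tested), and 57 were not called. Across all genes tested, 21.8% were called lower and 26.8% higher in the same comparison. The share called lower was thus 55.1% among the zinc finger genes, and their median log2 difference was -0.39, against 0.04 over all genes tested. A fall of at least 2-fold on this scale was seen in 40 of them and a rise of that size in 3. The scale of log2(RPKM + 1) understates the change of genes at low levels.

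The 3 TKO libraries carried less zinc finger RNA in sum than the WT and DKO libraries. The 158 genes summed to 3121, 3025 and 3009 RPKM in the WT libraries, to 3026, 3005 and 3049 in DKO and to 2360.2, 2125 and 2329 in TKO. WT and DKO overlapped, and all 3 TKO libraries lay below both. The median gene was at 8.19 RPKM in WT oocytes, at 8.21 in DKO and at 6.28 in TKO, and 11 genes had a mean below 1 RPKM in TKO and 0 in DKO. Fewer transcripts per oocyte and a larger amount of other RNA cannot be told apart in such scaled values.

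**Figure D1:**
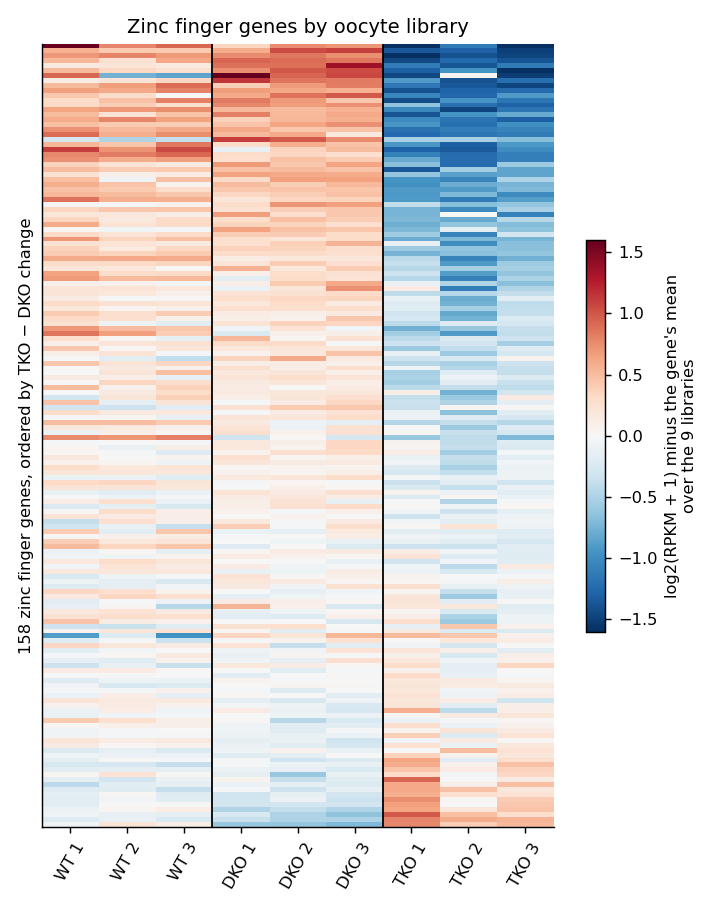
Each row is 1 of the 158 zinc finger genes and each column 1 of the 9 libraries of the knockout set, with colour showing log2(RPKM + 1) minus the gene's mean over the 9 libraries. Rows are ordered by the difference of TKO from DKO, so that the 87 genes that fell lie towards the top and the 14 that rose towards the bottom, and the 3 TKO columns stand against the 6 others.

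The genes whose proteins silence repeats or imprinted loci included some of the deepest falls. Zfp809, which binds the primer-binding site of Moloney murine leukaemia virus proviruses and silences them in embryonic cells through TRIM28, was at 2.81, 2.98 and 2.81 RPKM in WT, 5.36, 5.39 and 7.85 in DKO and 0.59, 0.34 and 0.59 in TKO oocytes. Every DKO library lay above every WT library and every TKO library below 1 RPKM. The fall from DKO to TKO was 2.24 ± 0.15 on the log2 scale (± SE, adjusted p = 3.85e-06). In the other oocyte set Zfp809 was at 4.56 and 3.38 RPKM in PRC1-WT and 3.41 and 2.96 in PRC1-CD, ranges that overlapped, and its log2 difference of -0.24 ± 0.20 did not pass the test (adjusted p = 0.427).

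Of the 6 active members of the list of repeat and imprint silencers, 4 fell from DKO to TKO and none rose. The share of 66.7% rests on few genes and stands beside 55.1% of the 158 genes and 21.8% of all genes tested. Zfp932, whose protein represses endogenous retroviruses of the ERVK class and whose RNA ranked 4 among the 158 genes in WT, stood at 114, 110.05 and 115 RPKM in WT, 106, 105 and 102 in DKO and 50.9, 53.5 and 55.7 in TKO. The 3 TKO libraries were close to each other and far below the rest, with a fall of 0.96 ± 0.06 (adjusted p = 2.60e-06). Zfp961, a KRAB gene, was at 33.1, 9.66 and 9.11 RPKM in WT, 53.9, 33.4 and 36.9 in DKO and 5.61, 17.6 and 5.38 in TKO. Its libraries disagreed within groups, WT replicate 1 and TKO replicate 2 being well above their fellows, and the fall of 2.17 ± 0.50 (adjusted p = 0.00553) carried a large error. Zfp92, an X-linked KRAB gene, fell by 0.37 ± 0.13 (adjusted p = 0.0345).

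Zfp445 and Zfp568 of this list were not called. Zfp445, which protects methylation at imprinted loci, was at 4.59, 4.51 and 4.22 RPKM in DKO and 4.93, 3.51 and 4.18 in TKO, and its difference of -0.07 ± 0.12 did not pass the test (adjusted p = 0.636). Zfp568, the repressor of a placental Igf2 transcript, was at 3.29, 3.09 and 3.01 RPKM in DKO and 3.59, 2.38 and 2.42 in TKO, with a difference of -0.14 ± 0.13 (adjusted p = 0.418). For both genes the DKO and TKO libraries overlapped.

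Genes outside the role lists gave the 4 deepest falls. Zfp825 was at 3.12, 2.76 and 2.77 RPKM in WT, 3.25, 4.79 and 5.02 in DKO and 0.1, 0.15 and 0 in TKO, TKO replicate 3 being listed at 0. No TKO library reached 0.2 RPKM, and the fall from DKO was 2.29 ± 0.15 (adjusted p = 3.29e-06). Zfp788 went from 5.07, 5.42 and 5.01 RPKM in DKO to 0.16, 0.36 and 0.3 in TKO, a fall of 2.28 ± 0.11 (adjusted p = 4.93e-07), while the WT libraries, at 4.79, 5.15 and 4.75, overlapped the DKO ones. Zfp770 went from 6.11, 5.92 and 5.75 to 0.37, 0.58 and 0.43 RPKM, a fall of 2.25 ± 0.12 (adjusted p = 1.40e-06). Again no library of TKO came near a library of DKO.

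Zfp820 had the largest fall of the 158, 2.33 ± 0.29 (adjusted p = 0.000179), with 9.14, 12.5 and 12.1 RPKM in DKO and 1.27, 2.64 and 0.7 in TKO. Its WT libraries were less even, at 24.8, 12.7 and 14.1. Zfp160, a steadier gene, was at 15.7, 15.1 and 17.3 RPKM in WT and 15.8, 15.2 and 14.5 in DKO but at 3.03, 3.36 and 3.49 in TKO. Its fall was 1.91 ± 0.09 (adjusted p = 4.93e-07), and WT and DKO overlapped.

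Further genes lost most of their RNA in the same step. Zfp959 was at 7.76, 9.45 and 9.78 RPKM in DKO and 1.11, 1.7 and 0.71 in TKO, a fall of 2.22 ± 0.17 (adjusted p = 9.04e-06). Zfp950 was at 4.27, 4.87 and 5.85 in WT, 3.84, 4.95 and 5.5 in DKO and 0.68, 0.45 and 0.34 in TKO, a fall of 1.95 ± 0.15 (adjusted p = 1.12e-05). Zfp583 went from 4.53, 5.65 and 6.2 RPKM in DKO to 0.76, 0.53 and 0.95 in TKO, a fall of 1.89 ± 0.15 (adjusted p = 1.45e-05). In all 3 genes the highest TKO library lay below the lowest WT and DKO library.

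The list of pluripotency and chromatin regulators had 11 active members, of which 5 fell and 1 rose from DKO to TKO. These shares were 45.5% and 9.09%, beside 55.1% and 8.86% of the 158 genes and 21.8% and 26.8% of all genes tested. Zfp410, which activates the remodeller gene Chd4, was at 8.95, 6.61 and 7.95 RPKM in DKO and 3.97, 3.67 and 3.67 in TKO. All TKO libraries lay below all WT and DKO libraries, and the fall was 0.88 ± 0.12 (adjusted p = 0.00023). Zfp281, a partner of pluripotency factors, fell by 0.27 ± 0.10 (adjusted p = 0.0479), and Zfp644, a subunit of the G9a methyltransferase complex, by 0.42 ± 0.10 (adjusted p = 0.00664). Zfp148 and Zfp131 fell by 0.35 ± 0.10 and 0.30 ± 0.07 (adjusted p = 0.0162 and 0.00622). Zfp296, a stem cell factor and among the 3 most abundant of the 158, was at 125, 118 and 126 RPKM in DKO and 113, 94.4 and 108 in TKO, and its difference of -0.23 ± 0.09 did not pass (adjusted p = 0.0563).

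Zfp541, known from male meiosis where its protein works with histone deacetylases, had the largest rise. It was at 4.45, 5.55 and 5.11 RPKM in WT, 2.72, 2.69 and 2.47 in DKO and 8.65, 6.48 and 7.14 in TKO. The 3 groups did not overlap, DKO being lowest and TKO highest, and the rise from DKO to TKO was 1.21 ± 0.12 (adjusted p = 5.01e-05).

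Among the 9 active zinc finger genes whose proteins handle RNA or protein, 3 rose and 1 fell. The shares, 33.3% and 11.1%, rest on few genes. They stand beside 8.86% and 55.1% of the 158 genes and 26.8% and 21.8% of all genes tested. Zfp91, which encodes a ubiquitin ligase, was at 6.63, 5.93 and 5.91 RPKM in DKO and 15.7, 13.8 and 13.3 in TKO, a rise of 1.09 ± 0.10 (adjusted p = 2.17e-05). Zfp598, whose ubiquitin ligase marks collided ribosomes, was at 9.16, 7.57 and 6.74 RPKM in DKO and 23.1, 15.9 and 13.6 in TKO, a rise of 1.05 ± 0.17 (adjusted p = 0.000781). Both genes were higher in all TKO libraries than in all WT and DKO libraries. Zfp638, an RNA-binding splicing regulator, rose by 0.32 ± 0.09 (adjusted p = 0.0159).

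Zfp207, also called BuGZ, a protein of kinetochores and of splicing, was the member of this list that fell. It was at 79.8, 80.5 and 83.9 RPKM in DKO and 50.9, 49.2 and 51.6 in TKO, and at 78.6, 76.3 and 71.6 in WT. The TKO libraries lay apart from the rest, with a fall of 0.68 ± 0.06 (adjusted p = 2.82e-05). The other 5 members of the list (Zfp106, Zfp318, Zfp451, Zfp593 and Zfp830) had log2 differences between -0.37 and 0.23 and did not pass the test. Beyond the lists, Zfp341, an activator of Stat3, rose by 0.87 ± 0.13 (adjusted p = 0.000439) and Zfp839 by 0.67 ± 0.14 (adjusted p = 0.00365).

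**Figure D2:**
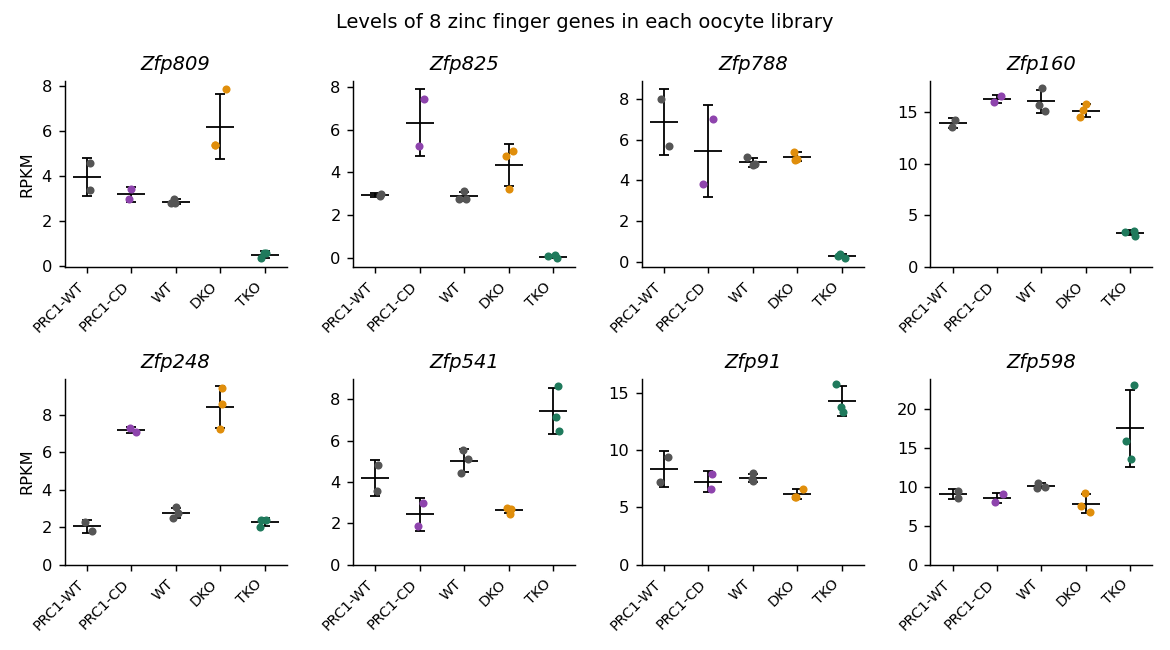
Each panel gives the RPKM of 1 gene (linear axis) in every oocyte library of the 5 groups, points being libraries and bars the mean ± SD of 2 (PRC1-WT, PRC1-CD) or 3 (WT, DKO, TKO) libraries. Zfp809, Zfp825, Zfp788 and Zfp160 are lowest in TKO, Zfp541, Zfp91 and Zfp598 are highest there, and Zfp248 is high in PRC1-CD and DKO.

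The most abundant members moved in both directions. Zfp655, the highest of the 158 in WT, was at 209, 206 and 214 RPKM in DKO and 164, 151 and 188 in TKO, a fall of 0.33 ± 0.08 (adjusted p = 0.00529). Zfp277, the next, whose protein binds the Polycomb protein BMI1, was at 237, 231 and 214 in DKO and 213, 204 and 222 in TKO, and its difference of -0.09 ± 0.07 did not pass (adjusted p = 0.254). Among the 10 highest genes, Zfp932, Zfp58 and Zfp951 had the largest falls, of 0.96 ± 0.06, 0.91 ± 0.13 and 0.83 ± 0.14 (adjusted p = 2.60e-06, 0.00038 and 0.0011). Zfp706 rose by 0.18 ± 0.07 (adjusted p = 0.0449).

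Related families differed in their counts. Of the 19 active Zbtb genes, which join zinc fingers to a BTB domain, 5 were lower and 2 higher in TKO than in DKO, with a median difference of 0.02. Of the 15 active Zscan and Zkscan genes, which join fingers to a SCAN domain, 2 were lower and 8 higher, with a median of 0.37. Among the 9488 other genes active in WT oocytes 22.1% were lower and 28.9% higher, with a median of 0.04. Of the 186 Zfp-numbered genes below the threshold, 68 passed the filter on low values through at least 1 group and they are not counted here, since a gene that passed through 1 high group had to differ. The 3 genes just inside the threshold in WT were Zfp606 at 2.01, Zfp947 at 2.03 and Zfp618 at 2.07 RPKM, and the 3 just outside were Zfp777 at 1.94, Zfp787 at 1.87 and Zfp691 at 1.86 RPKM.

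The cofactors of KRAB proteins were examined as a further list, and 18 of its 20 genes were tested. From DKO to TKO 8 rose and 1 fell (44.4% and 5.56%, beside 26.8% and 21.8% of all genes tested). Trim28, the scaffold that KRAB domains bind, was at 19.9, 24.03 and 22.1 RPKM in WT, 26.5, 20.8 and 20.03 in DKO and 52.4, 40.2 and 37.7 in TKO, a rise of 0.92 ± 0.14 from DKO (adjusted p = 0.000555). Setdb1, the H3K9 methyltransferase of the pathway, was at 27.3, 25.7 and 24.8 in DKO and 56.3, 48.6 and 56.1 in TKO, a rise of 1.02 ± 0.08 (adjusted p = 1.60e-05). In both genes every TKO library lay above every WT and DKO library. Uhrf1, which couples H3K9 methylation to DNA methylation, rose by 1.02 ± 0.11 (adjusted p = 9.14e-05), and Chd4, the remodeller of the NuRD complex, by 0.79 ± 0.10 (adjusted p = 0.000227).

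The other risers of this list were Atf7ip, the partner of SETDB1, the maintenance DNA methyltransferase gene Dnmt1, the remodeller gene Smarcad1 and the HP1 gene Cbx1, with rises of 0.50, 0.43, 0.27 and 0.23. Atrx, a remodeller of heterochromatin, was at 83.2, 85.4 and 81.2 RPKM in WT, 41.4, 46.4 and 40.9 in DKO and 35.8, 30.1 and 31.8 in TKO. It fell by 0.39 ± 0.08 (adjusted p = 0.00302) from DKO to TKO, and the 3 groups did not overlap. The median difference of the 18 genes was 0.23, against 0.04 over all genes tested. Which of the 158 genes encode a KRAB domain was not counted, and the 158 include genes of other kinds, such as Zfp91 and Zfp207.

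The granulosa cell marker Fshr, the follicle-stimulating hormone receptor, was higher in TKO (4.86, 7.18 and 7.18 RPKM) than in DKO (0.06, 0.3 and 0.25). It was also higher in PRC1-CD (18.6 and 12.02) than in PRC1-WT (0.6 and 0.5). Of the 10 granulosa and cumulus markers 2 had a mean of at least 1 RPKM in DKO and 2 in TKO, Foxl2 was listed at 0 in all DKO libraries and Vim in all TKO libraries. The 10 markers summed to 17.6 to 18.9 RPKM in PRC1-WT and 32.9 to 37.7 in PRC1-CD, with Amh listed at 0 in both PRC1-CD libraries. Cyp19a1 was most of the sum in PRC1-WT (16.3 and 18.1 RPKM) and was at 15.8 and 18.6 in PRC1-CD. The rise of the sum was mostly that of Fshr. The sum of 6 stroma and blood markers was 1 to 1.08 RPKM in PRC1-WT and 5.56 to 6.47 in PRC1-CD, without overlap, and Col1a2 and Hbb-bs were listed at 0 in both PRC1-CD libraries. Most of that sum was Dcn, at 0.97 and 1.03 RPKM in PRC1-WT and 5.91 and 4.92 in PRC1-CD. In the knockout set the median of that sum was 2.25 for WT, 0.59 for DKO and 1.36 for TKO libraries. The part of such cells in the zinc finger results was not tested.

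The genes were then counted by their position along the chromosomes. Runs of at least 3 Zfp-numbered genes with gaps of at most 250000 bases were taken as genomic groups, a definition chosen after the data had been seen. In such runs lay 78 of the 158 genes, of which 50 were lower in TKO than in DKO and 1 was higher, with a median difference of -0.55. Of the 80 genes outside runs 37 were lower and 13 higher, with a median of -0.21. Genes of a run can share sequence, so reads may be split or shared among near-identical copies, and the sources used here do not say how such reads were counted.

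Of these runs, 12 held at least 3 active members each, 58 members in all, and 39 of the 58 fell while none rose. Over all 158 genes 55.1% fell and 8.86% rose, and over all genes tested 21.8% fell and 26.8% rose. On chromosome 10 (81704747 to 82241280, RefSeq GRCm38.p6) all 4 members, Zfp433, Zfp781, Zfp873 and Zfp938, fell, with a median difference of -1.39. Their summed level was 138, 124 and 143 RPKM in the WT libraries, 133, 146 and 139 in DKO and 53.8, 50.3 and 64.04 in TKO. WT and DKO overlapped and TKO lay far below. The 4 other genes tested in this interval, Gm3055, Gm32687, Gm4767 and BC024063, also fell, and their median was -1.58. Whether these 4 encode zinc fingers was not examined.

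Chromosome 17 carried 20 of the 158 genes, of which 16 fell and 1 rose, whereas 18.8% of the 564 other genes tested there fell. Its first run (21383707 to 22456689) held 10 members, of which 8 fell. Their summed level was 122, 112 and 117 RPKM in WT, 97.9, 105 and 104 in DKO and 37.3, 41.8 and 45.1 in TKO, so that here DKO also lay below WT. In the other run (32765496 to 33631716) all 4 members fell, Zfp472, Zfp952, Zfp81 and Zfp414. They summed to 98.1, 98.96 and 96.1 RPKM in WT, 104, 109 and 108 in DKO and 44.9, 37.4 and 38.01 in TKO. No TKO library reached 50 RPKM in either run.

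A run on chromosome 2 (150114407 to 150485063) and a run on chromosome 8 (69610654 to 69774911) each had 3 members, and all fell. The members on chromosome 2, Zfp120, Zfp442 and Zfp345, summed to 69.2, 75.9 and 77.7 RPKM in DKO and 30.3, 26.4 and 30.6 in TKO. The 4 other genes tested in that interval fell too, and whether they encode zinc fingers was likewise not examined. On chromosome 13 (67038594 to 67827000) 4 of 5 members fell, and their sum was 101, 97.1 and 98.6 RPKM in WT, 72.9, 73.5 and 71.3 in DKO and 47.4, 32.7 and 40.3 in TKO, the 3 groups standing in that order without overlap.

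Chromosome 7 carried the most members, 40, of which 16 fell and 3 rose, whereas 17.9% of the 826 other genes tested there fell. The 7 members between 24081877 and 24587840, with Zfp108 and Zfp428 among them, summed to 115, 109 and 128 RPKM in DKO and 127, 92.8 and 115 in TKO, which overlapped, and 2 of them fell. Of the 10 members between 29768552 and 30169775, where Zfp568 lies, 4 fell. The sums were 63.2, 68.2 and 65.7 in DKO and 55.7, 52.1 and 54.5 in TKO. In the 12 runs together 30 other genes were tested, of which 14 fell and 10 rose. Those that rose all lay in runs of chromosome 7. On chromosome 17 the 2 tested in each run fell, and in the run on chromosome 13 it was 1 of 5. Some of the 30 are zinc finger genes outside the name pattern, such as Zfp729a and Zscan5b. The 2 tested in the second run on chromosome 17 were also such genes, Zfp955a and Zfp955b. How many others encode zinc fingers was not counted, so a fall of neighbours outside the family was not tested.

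**Figure D3:**
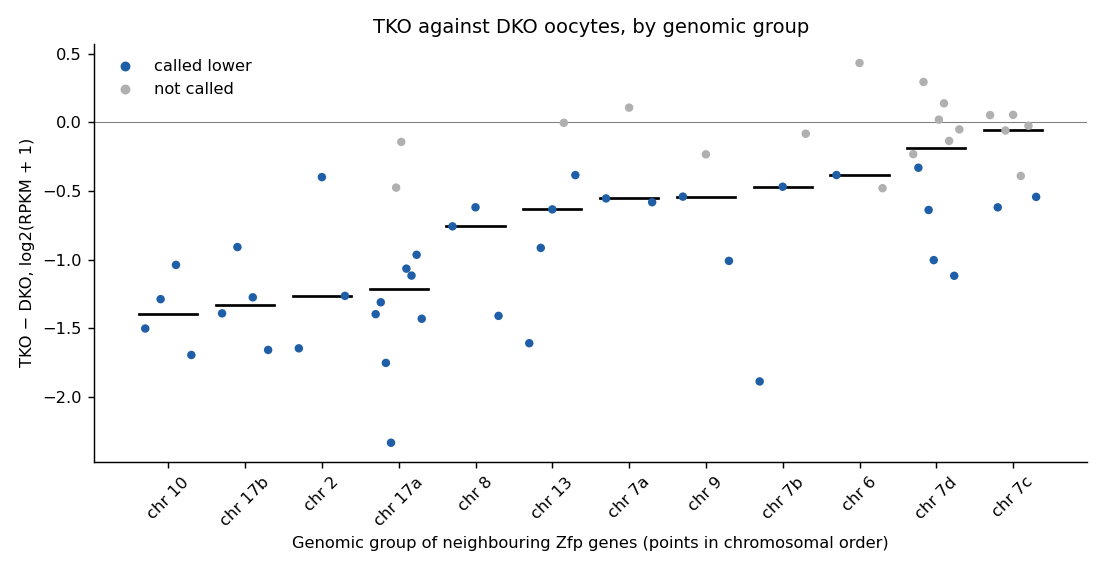
Each point is a zinc finger gene in 1 of the 12 genomic runs with at least 3 active members, and its height is the difference of TKO from DKO oocytes on the log2(RPKM + 1) scale. Runs are ordered by their median (bar), letters number runs of 1 chromosome from its start, blue points were called lower and grey points not called. All points of the runs on chromosomes 10, 17 (the second run, 17b), 2 and 8 are blue, and those of 7c and 7d are mostly grey, reaching from above 0 down to -0.62 and -1.12.

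The genes that fell had fewer CpG dinucleotides in their promoters, by the median, than the others. A RefSeq promoter was listed for 132 of the 158 genes. The median number of CpG dinucleotides in the 300 bases was 10 in the 75 genes that fell, 17 in the 46 not called and 19 in the 11 that rose. The start site in the promoter table lay more than 100 bases from the 5′ end of the RefSeq gene for 35 of the 132, Zfp541 among them. In the other 97 genes the medians were 10 in the 57 that fell, 16 in the 36 not called and 24 in the 4 that rose. Over all tested genes with a promoter listed the medians were 17, 19 and 21 in the same order. Across the 132 genes the Spearman correlation of CpG number with the TKO against DKO difference was 0.33 (0.29 over the 97), a description, since neighbouring genes share sequence and base composition. The genes of the runs had a median of 11 CpG dinucleotides and those outside runs 17, so position and CpG content moved together, and the part of each was not tested.

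The relation was not even along the range. With 0 to 5 CpG dinucleotides 10 of 20 genes fell, with 6 to 10 it was 28 of 33 (84.8%), with 11 to 15 it was 14 of 20, with 16 to 20 it was 10 of 25, and with 21 or more it was 13 of 34. Over all tested genes the shares in these ranges were 23.1%, 29.2%, 25.5%, 23.9% and 18.6%. In every range a larger share of the zinc finger genes fell than of all genes. A pair of motifs was searched on both strands. CACGTG, the E-box, was found in 9.09% of the zinc finger promoters and 10.04% of all tested promoters, and TTCCCGC, an E2F motif, in 9.85% and 8.02%. Over all 27025 listed promoters the shares were 7.24% and 4.66%.

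In PRC1-CD oocytes the shares of the 158 genes called were near those of other active genes. In PRC1-CD against PRC1-WT oocytes 10 rose (6.33%), 11 fell (6.96%) and 137 were not called. Among the 9468 other genes active in WT oocytes that were tested, 8.52% were called higher and 6.80% lower, with a median of -0.04. Of all 13376 genes tested 17.3% were called higher and 5.61% lower. The median difference of the 158 genes was -0.16, against 0.04 over all genes tested. After quantile normalization, which moved the median of all genes from 0.04 to -0.08, the split was 7 higher and 21 lower, and 12% and 11.5% of all genes were called higher and lower. After median-ratio scaling the split was 10 and 20, with 15.4% and 9.49% of all genes. The share of the 158 called lower, 13.3% and 12.7% in these settings, was thus near that of all genes. Leaving out a library leaves 1 sample in its group, which is then assumed to vary like the 2 of the other group. Most of the 21 calls were lost in such fits. All 21 differences kept their sign, which cannot fail for genes whose groups do not overlap and is no measure of stability. The median difference moved with the library, to -0.004 when PRC1-WT replicate 1 was left out and -0.29 when its replicate 2 was, and to -0.19 and -0.10 for replicates 1 and 2 of PRC1-CD.

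Zfp248 was at 2.28 and 1.8 RPKM in PRC1-WT and 7.29 and 7.06 in PRC1-CD, a rise of 1.43 ± 0.18 (adjusted p = 0.00183). It was also higher in every DKO library (9.46, 8.58 and 7.25) than in every WT library (3.05, 2.5 and 2.77), and the TKO libraries, at 2.4, 2.4 and 2.03, lay below all of these. From DKO to TKO it fell by 1.52 ± 0.12 (adjusted p = 1.16e-05). The other genes with the largest rises in PRC1-CD were Zfp959, Zfp947, Zfp583 and Zfp825, by 1.03, 0.94, 0.94 and 0.87. In all 4 both PRC1-CD libraries lay above both PRC1-WT libraries.

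Zfp942, a gene of the first run on chromosome 17, had the largest fall in PRC1-CD. It was at 14.03 and 12.4 RPKM in PRC1-WT and 5.97 and 4.19 in PRC1-CD, a fall of 1.24 ± 0.21 (adjusted p = 0.00553), without overlap. Zfp534 went from 11.6 and 11.7 to 5.16 and 4.86 RPKM, a fall of 1.07 ± 0.17 (adjusted p = 0.0044). Zfp169, Zfp108 and Zfp69 fell by 0.94, 0.90 and 0.89 (adjusted p = 0.0347, 0.0364 and 0.0111). No member of the 3 role lists was called. Of the KRAB cofactors Atf7ip2 rose by 0.67 ± 0.17, and Dnmt1 and Atrx fell by 0.64 ± 0.15 and 0.63 ± 0.18 (adjusted p = 0.0309, 0.0239 and 0.0421).

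The DKO and TKO oocytes were set beside the WT oocytes as a description, because the same WT libraries chose the genes. In DKO 19 of the 158 were called higher and 14 lower (17.5% and 11.3% of all genes tested), with a median difference of -0.01. Among the 9488 other genes active in WT oocytes 13.9% were called higher and 13.9% lower. The split was 15 and 23 after quantile normalization (14.4% and 16% of all genes) and 16 and 25 after median-ratio scaling (14.8% and 16.4%). In place of 33 genes, 19 were called without WT replicate 3 and 21 without DKO replicate 1. All 33 differences kept their sign, which cannot fail for genes whose groups do not overlap. The largest rises over WT were those of Zfp961, Zfp248, Zfp428, Zfp809 and Zfp141, of 1.43, 1.32, 1.05, 0.88 and 0.73. The first rests on WT libraries that differed among themselves, as given above. The largest falls were those of Zfp85, Zfp541, Zfp534, Zfp971 and Zfp943, with differences of -0.95, -0.73, -0.72, -0.66 and -0.58. Zfp85 was at 5.3, 5.09 and 5.53 RPKM in WT and 2, 2.77 and 2.1 in DKO, and at 1.45, 1.81 and 1.29 in TKO.

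In TKO against WT, 20 genes were called higher and 80 lower (31.2% and 20.1% of all genes tested), with a median difference of -0.40. Among the 9488 other genes active in WT oocytes 29.1% were called higher and 23.1% lower. Zfp820, Zfp788, Zfp534, Zfp950 and Zfp160 had the largest falls, with differences of -2.86, -2.21, -2.17, -2.01 and -1.99. Zfp534 went down in steps, from 15.6, 11.7 and 15.1 RPKM in WT to 6.01, 8.91 and 9.94 in DKO and 2.15, 2.02 and 2.88 in TKO. The largest rises were those of Zfp428, Zfp91, Zfp598, Zfp688 and Zfp46, of 1.02, 0.83, 0.71, 0.68 and 0.67. Zfp428 was already high in DKO (8.95, 7.98 and 10.4 RPKM) and stayed within that range in 2 TKO libraries (10.1, 9.53 and 7.22 over the 3), against 3.23, 5.73 and 3.02 in WT.

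The PRC1-CD and DKO comparisons share no library, and their differences can be set side by side. Across the 158 genes they had a Pearson correlation of 0.62 and a Spearman correlation of 0.63, a description of genes that are not independent. Zfp248, Zfp428, Zfp583, Zfp770, Zfp825 and Zfp959 were called higher in both. Zfp341, Zfp534 and Zfp971 were called lower in both, and no gene was called in opposite directions. Zfp3, Zfp821 and Zfp866 were lower in PRC1-CD and higher in DKO, and Zfp820 was the reverse (0.38 and -0.52). In these 4 genes the groups of each comparison did not overlap, but none was called. The same correlation and shared calls were not computed over all genes, so whether the 158 genes differ from others in this was not tested. The values of the 6 genes that were higher in both are given for TKO as well, in a comparison that shares the DKO libraries. Zfp428 was not called between DKO and TKO (-0.03 ± 0.20, adjusted p = 0.926), and the other 5 fell, by 1.52, 1.89, 2.25, 2.29 and 2.22.

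**Figure D4:**
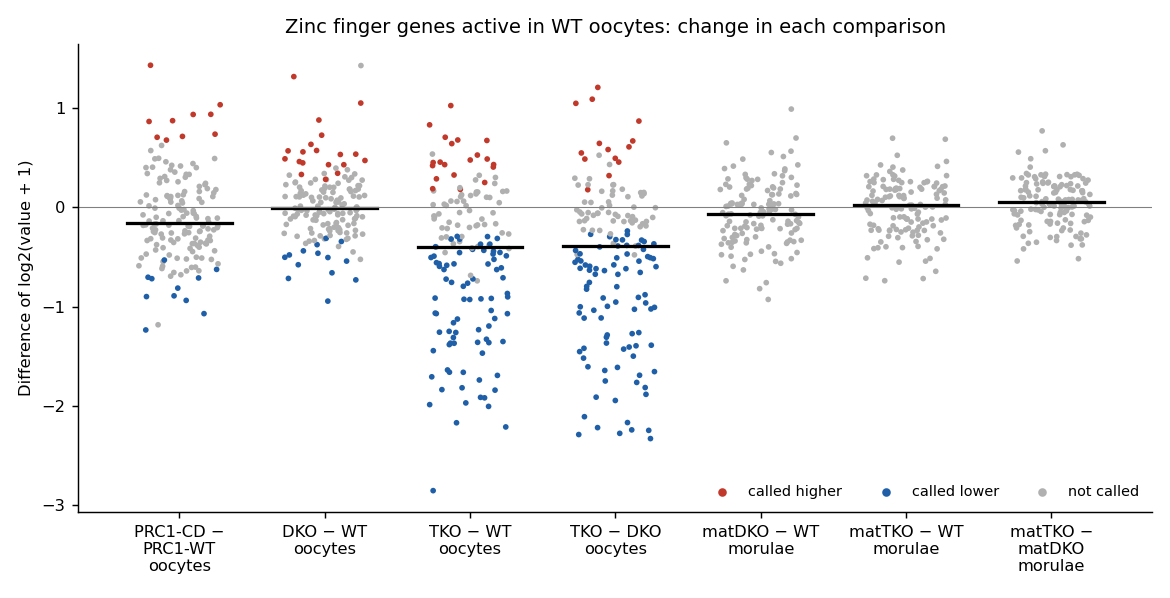
Each point is 1 zinc finger gene, and its height is the difference named under the axis on the log2(value + 1) scale, RPKM for oocytes and TPM for morulae, with the median as a bar. Red points were called higher, blue points lower and grey points not called at an adjusted p of 0.05. The TKO columns have their medians at -0.40 (against WT) and -0.39 (against DKO), and the 3 morula columns hold grey points only.

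In morulae, where the embryo's own genome is transcribed, none of the 158 genes was called in any of the 3 comparisons (limma on log2(TPM + 1), TPM being values corrected for transcript length that add up to the same total in each library). The median gene stood at 4.45 TPM in WT, 3.998 in maternal DKO and 4.34 in maternal TKO. Of the 158, 135 passed the filter on low values. Over all 13056 genes tested, 0.329% were called higher and 1.41% lower in maternal DKO against WT, 0.176% and 0.391% in maternal TKO against WT, and 0.046% and 0.023% in maternal TKO against maternal DKO. At an unadjusted p under 0.05 there were 19, 18 and 5 of the 135 genes (14.1%, 13.3% and 3.70%), beside 17.3%, 12.9% and 6.64% of all genes tested. Without the 5 libraries that stood apart, a setting chosen after seeing the data, it was 19, 16 and 14 of 137 genes (13.9%, 11.7% and 10.2%), beside 21.6%, 16.4% and 10% of all genes, and the median gene stood at 4.16, 3.97 and 4.22 TPM.

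Zfp809, Zfp825 and Zfp788, nearly absent from TKO oocytes, were present in all morula groups. Zfp809 had its lowest, median and highest values at 13.99, 25.7 and 62.4 TPM in WT, 18.6, 29.8 and 46.5 in maternal DKO and 17.4, 22.8 and 39.3 in maternal TKO morulae. The 3 ranges overlapped, and the difference of maternal TKO from maternal DKO was -0.29 ± 0.20 (adjusted p = 0.872). Zfp825 was at 12.9, 22.9 and 28.2 TPM in WT, 11.4, 18.95 and 24.5 in maternal DKO and 8.69, 20.97 and 26.9 in maternal TKO, with a difference of 0.08 ± 0.18 between the knockouts (adjusted p = 0.982). Zfp788 was at 7.32, 9.7 and 14.5 TPM in WT morulae, 5.75, 11.4 and 15.8 in those of maternal DKO and 8.32, 13.7 and 20.7 in those of maternal TKO, and its difference was 0.25 ± 0.17 (adjusted p = 0.872). For each of the 3 genes every morula library had a value above 5 TPM. Without the 5 libraries the differences of maternal TKO from maternal DKO were -0.32 ± 0.17, 0.19 ± 0.20 and 0.36 ± 0.17 for Zfp809, Zfp825 and Zfp788 (adjusted p = 0.567, 0.801 and 0.464), and the ranges of each gene still overlapped between groups.

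Zfp541, the gene with the largest rise in TKO oocytes, was below 1 TPM in all 30 morula libraries. Its values were 0, 0.04 and 0.92 TPM in WT, 0, 0.07 and 0.97 in maternal DKO and 0, 0.08 and 0.49 in maternal TKO. It did not pass the filter and was not tested. Zfp735 was listed at 0 in all 10 WT morulae. At the other end, Zfp706 was the highest of the 158 in morulae, at 152, 218 and 269.76 TPM in WT, followed by Zfp593, a ribosome biogenesis factor, and Zfp207.

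**Figure D5:**
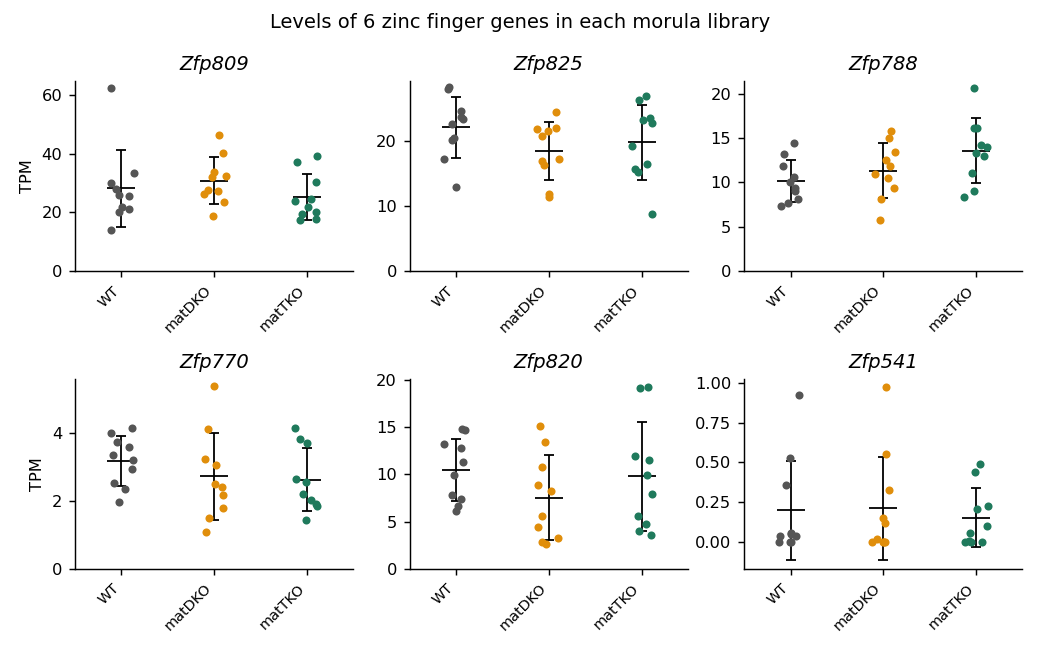
Each panel gives the TPM of 1 gene (linear axis) in the 10 morula libraries of each group, points being libraries and bars the mean ± SD. The groups overlap in every panel, Zfp809 in WT replicate 9 stands at 62.4 TPM, and Zfp541 stays below 1 TPM.

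The closest approach to the threshold in maternal DKO morulae was that of Zfp560, which lay at 1.38, 1.94 and 2.4 TPM in WT and 0.29, 0.94 and 1.78 in maternal DKO, with a difference of -0.59 ± 0.16 (adjusted p = 0.0527). Zfp947 had a difference of -0.82 ± 0.23 (adjusted p = 0.0533). Without the 5 libraries 4 of 137 genes were called lower in maternal DKO, Zfp120, Zfp560, Zfp947 and Zfp971, a share of 2.92% beside 2.88% of all genes tested. In maternal TKO, Zfp759 came closest, at 1.07, 1.76 and 3.32 TPM in WT and 0.14, 0.65 and 1.4 in maternal TKO, a difference of -0.74 ± 0.19 (adjusted p = 0.0599). It was the 1 gene called lower without the 5 libraries (0.73%, beside 1.24% of all genes), and between the knockouts 0 genes of the 158 were called there with limma. Zfp951 had the largest positive difference, 0.70 ± 0.22 (adjusted p = 0.153).

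The genes whose pattern was most like that of Zfp809 were not the same at the 2 stages. Over the 9 libraries of the oocyte knockout set, the highest Pearson correlations of log2(RPKM + 1) with Zfp809 were those of Zfp583 (0.98), Zfp472 (0.98), Zfp141 (0.97), Zfp82 (0.96) and Zfp825 (0.96), over libraries that share their group differences. Zfp141, for example, was at 3.3, 3.58 and 3.97 RPKM in WT, 7.75, 6.18 and 6.06 in DKO and 1.12, 0.51 and 0.72 in TKO, the same order of groups as Zfp809. Over the 30 morula libraries the closest were Zfp775 (0.59), Zfp935 (0.55), Zfp568 (0.55), Zfp541 (0.54) and Zfp97 (0.53). These correlations rest on the 5 libraries that stood apart: over the other 25 they were 0.23, 0.17, 0.01, 0.31 and 0.12, and the closest genes were Zfp407 (0.52), Zfp846 (0.46), Zfp692 (0.41), Zfp735 (0.39) and Zfp74 (0.39). None of either 5 was among the 5 of the oocytes. As given above, Zfp541 was very low in all morula libraries and Zfp735 was absent from those of WT, so their correlations rest on low values.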

How the data were processed

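RNA of 43 mouse samples was measured from polyadenylated transcripts with SMART-Seq v4 and Nextera XT, per the labels' protocols. Strand is lost in this chemistry, so reads of overlapping antisense genes are mixed. The submitters' processing notes name Trim Galore 0.6.4, RSEM 1.3.1, featureCounts 1.6.0, STAR 2.7.3 and STAR 2.7.6 with builds mm10 and GRCm38, but no order. The authors deposited 2 oocyte tables in RPKM, as their titles say. Although the morula table has RPKM in its title as well, each library sums to between 999421 and 999922, and the authors' values were treated as TPM. Sequencing depth is therefore unknown and counting intervals cannot be given. From each of the oocyte tables, 27 entries whose names had become calendar dates were dropped, and 0 from the morula table. PRC1-CD replicate 2 has the tissue label embryo, but its title and stage give it as an oocyte, and it was kept.

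The tables were fitted separately with limma 3.58.1 in R 4.3.3 (lmFit, eBayes with trend = TRUE) on log2(value + 1), using genes whose mean reached 1 in some group. The spread was estimated jointly over the groups of a table, with no replicate term. Tests were two-sided, adjusted by Benjamini-Hochberg over all genes tested in a table and called at an adjusted p under 0.05, and p-values reflect the variation among these samples alone, part of which may be technical. Errors of differences are standard errors, and the fit was tested on simulated data. Genes named are Zfp809, the 10 most abundant, the 5 largest rises and falls of each comparison, the role lists, the threshold's neighbours and the genes most like Zfp809; other names were chosen after their values were seen. The members and lists were chosen with earlier results of these data known. A pair of Zfp symbols left out by the rule is not analysed here. Alternatives were the pseudocount, filter, scaling, replicate block, groups fitted, member threshold and each oocyte library left out.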

Additional observations from a re-analysis of the deposited data

Results flagged for a closer look

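Zfp809 in WT morula replicate 9 stood at 62.37 TPM, and the next highest of the 10 WT morulae was at 33.5 TPM. The gap was 0.597 of the group's whole range, above the limit used for a value far from the rest of its group. Over 20 genes, 60 groups of 10 morulae were examined in this way and 1 was picked out, where chance picks out about 1 in 20. The same library was among the 5 that stood apart on the first principal component of all genes. It lay at 40.8, just over the limit of 40, where the other 9 WT morulae were all below 0.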

How the results depend on the processing

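The fall from DKO to TKO kept its direction under every alternative run. The number of the 158 genes called lower was 87 and lay between 78 and 92 over the other pseudocount, filter, scalings, fits and a choice of 158 genes on the PRC1-WT libraries. With each library left out, 76 to 87 were called lower, 11 to 19 higher and 88 to 101 either way, against 101 with all libraries; TKO against WT had 100 called, and 84 to 104 with a library left out. In PRC1-CD 21 genes were called, 7 without the filter on low values, 8 of the 104 genes at a member threshold of 5 RPKM, and 2 to 3 with a library left out. The split of 10 higher and 11 lower became 7 and 21 after quantile normalization, and 10 and 20 after median-ratio scaling. In DKO against WT 33 genes were called, 51 with only those groups fitted, 20 at the threshold of 5 RPKM, and 19 (without WT replicate 3) to 43 (without TKO replicate 2) with a library left out; without DKO replicate 1 it was 21. The split of 19 higher and 14 lower became 15 and 23 after quantile normalization, and 16 and 25 after median-ratio scaling. In TKO against WT the split of 20 and 80 became 11 and 94 under either.

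In morulae 0 of 135 genes were called with limma in each comparison. With a replicate block 2 were lower in maternal DKO (Zfp560 and Zfp947) and 1 higher in maternal TKO (Zfp951), which was also the 1 called with only those groups fitted. At a member threshold of 1 RPKM in WT oocytes, 1 further gene, Zfp707, was higher in maternal TKO. Without the 5 libraries that stood apart 4 were lower in maternal DKO and 1 in maternal TKO. Deviations of same-numbered libraries correlated by -0.05 to 0.11 in the oocyte knockout set, by 0.09 in the PRC1 set and by -0.18 to 0.58 in morulae, where 13 of 30 pairs were over 0.1. As not every pair was, the numbers were not taken as pairs. The correlation was highest with the own number in 3 of 9, 2 of 2 and 9 of 30 pairs. The block gave 86 genes lower from DKO to TKO in place of 87, and over all genes it moved those lower in maternal DKO from 184 to 485. Depth is unknown, so it cannot be said which low genes lie below detection.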
